A study of Mus musculus with 6 samples.

Results

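The clock repressors described here are 8 mouse genes: the Period genes Per1, Per2 and Per3, the cryptochrome genes Cry1 and Cry2, Ciart, and the paired genes Bhlhe40 and Bhlhe41. They were found as every probe set that the platform annotation assigns to 1 of these symbols alone, which gave 16 of the 45037 probe sets. Of these, 8 probe sets, for 7 of the 8 genes, were bright enough to be tested among 22326 tested probe sets. Bhlhe41 was not. The arrays measured ribosome-bound messenger RNA from cortical cells of S100a10 bacTRAP mice (line ES691), in which the control region of S100a10 drives a tagged ribosomal protein so that the ribosomes of those cells can be pulled out with their RNA (translating ribosome affinity purification, TRAP). Fluoxetine, an antidepressant that blocks serotonin reuptake, was given in the drinking water at 0.167 mg/ml with 1% saccharine for 15 to 18 days (3 arrays). Vehicle mice of the same line had 1% saccharine over the same time (3 arrays). The line came from FVB mice crossed back to C57BL/6 over 3 to 5 generations. No age, no hour of tissue collection and no number of animals per sample is given by the labels used here. The p-values therefore measure the spread between these samples.

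The mammalian clock is a feedback loop. The CLOCK and BMAL1 proteins bind E-box sequences and switch on the Per and Cry genes, whose proteins gather in complexes, enter the nucleus and hold CLOCK and BMAL1 back until they are broken down. Ciart and the Bhlhe proteins are further repressors of the same E-box activity, and most of these genes therefore rise and fall over the day in nearly every tissue, cortex included. Per1 is also an immediate early gene in neurons, switched on within the hour by calcium and cyclic AMP through the factor CREB, and it has a glucocorticoid response element.

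Some promoters of the members show elements through which the loop is known to act. RefSeq promoters (GRCm38.p6) were available for 6 of the 8 genes, with 2 starts for Per1, and the 250 bases before each start were searched on both strands. Per2 and Bhlhe40 had no entry. The E-box was searched as CACGTG, which reads the same on both strands and lay in 6.02% of all 32851 promoters in the table. It was found before the first start of Per1 and before those of Cry1, Ciart and Bhlhe41, with 3 copies in Ciart. The windows below show these sites in capitals, with the surrounding bases in lower case, each read 5′ to 3′ on the strand of its gene.
Per1, first start, chr11:69098765-69098806, plus strand: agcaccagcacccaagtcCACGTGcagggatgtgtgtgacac
Cry1, chr10:85185091-85185132, minus strand: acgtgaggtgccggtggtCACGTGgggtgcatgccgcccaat
Ciart, chr3:95882249-95882362, minus strand: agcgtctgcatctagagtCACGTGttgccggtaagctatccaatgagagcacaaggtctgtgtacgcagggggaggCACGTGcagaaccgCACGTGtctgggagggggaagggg
Bhlhe41, chr6:145865550-145865591, minus strand: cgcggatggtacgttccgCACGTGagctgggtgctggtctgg

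Per3 held none of these E-boxes in its window but 2 copies of the D-box TTATGTAA, the element bound by the PAR factors DBP, TEF and HLF, which lay in 0.819% of all promoters. The second start of Per1 held a half-site of the cyclic AMP response element (CRE), TGACG, which lay in 17.8% of promoters. The half-site also lay before the first start of Per1 and before Cry1 and Cry2, so it is not particular to the second start of Per1, which is shown as an example. The full CRE, TGACGTCA, which contains that half-site, lay in 1.55% of promoters and in none of the members' windows. The E-prime box CACGTT (3.85% of promoters) was found before Cry1 and Cry2. A match is a description of the letters and not a measured binding site. The capitals mark the D-boxes and the half-site.
Per3, chr4:151044798-151044888, minus strand: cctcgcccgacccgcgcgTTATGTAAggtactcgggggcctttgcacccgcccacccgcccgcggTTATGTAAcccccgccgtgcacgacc
Per1, second start, chr11:69100002-69100042, plus strand: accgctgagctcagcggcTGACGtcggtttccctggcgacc

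Values are intensities on a linear scale as normalized by the authors with GCRMA. Array medians lay between 47.3 and 48.6, and the number of arrays limits the precision. The driver gene S100a10 differed by −0.07 ± 0.11 on the log2 scale (SE) on its brightest probe set and by −0.20 on its other tested one. The layer 5 markers Bcl11b, Fezf2 and Crym were all present above the filter, with differences of −0.04 ± 0.11, −0.05 ± 0.12 and −0.30 ± 0.14 (SE). Markers of other cells were above it too, including all 6 astrocyte and all 5 interneuron genes on the lists. Of the interneuron genes 3 were lower and 2 higher with fluoxetine (median −0.09), with Vip at −0.39 ± 0.10 (limma, SE, unadjusted p = 0.00632, adjusted p = 0.999). The astrocyte list summed to 30670 to 42465 on the fluoxetine arrays and 31531 to 37319 on the vehicle arrays. That sum is carried by the brighter genes. By gene, 4 of the 6 were higher with fluoxetine, with a median difference of 0.40, and the mean deviation was 1.29, −0.70 and 0.57 on fluoxetine 1 to 3, against −0.54, −0.34 and −0.28 on vehicle 1 to 3. Its least even member, Gfap, read 4484, 22.5 and 519 on fluoxetine 1 to 3, against 26.1, 37.8 and 50.8 on vehicle 1 to 3. Sox9, a transcription factor of astrocytes, differed by 0.58 ± 0.11 (limma, SE, unadjusted p = 0.00109, adjusted p = 0.999), with its other probe sets at 0.09 and 0.13. The part of astrocyte RNA in the members' differences was not tested. In RNA from a mixed pull-down, fewer cells of a type and less RNA per cell cannot be told apart.

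The question put to these arrays is what weeks of fluoxetine do to RNA under translation in S100a10 cells. All 7 measured clock repressor genes had a lower mean on the fluoxetine arrays, by 0.14 to 0.49 on the log2 scale, with a median difference of −0.25 (a fold of 0.84). None of the 7 passed limma's moderated test with Benjamini-Hochberg adjustment over all tested probe sets, where 0% of the 22326 did (smallest adjusted p = 0.999). Before adjustment, 563 probe sets (2.52%) had p under 0.05, with 1.78% lower with fluoxetine, and 1 of the 7 genes did, Per1. Of all tested probe sets 66.3% had a lower mean with fluoxetine, and their median difference was −0.058. The members' count is to be read against that share. When the arrays were put on a common scale, by quantile normalization or by a shift to a common median, 50.2% and 49.2% of all probe sets were lower. All 7 members were still lower under both, with medians of −0.18 and −0.19.

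Among the Period genes, whose proteins are the scaffold of the repressor complex, Per1 (probe set 1449851_at) had the largest difference of the members. It read 990, 1007 and 1516 on fluoxetine 1, 2 and 3, against 1490, 1887 and 1475 on vehicle 1, 2 and 3. Fluoxetine 1 and 2 were the low arrays and vehicle 2 the high one, while fluoxetine 3 lay among the vehicle arrays, so the groups overlapped. Mean log2 intensity was 10.16 ± 0.35 on the fluoxetine arrays and 10.65 ± 0.20 on the vehicle arrays (SD, n = 3 each). The difference was −0.49 ± 0.20 (SE), a fold of 0.714 with a 95% interval of −0.96 to −0.02 in log2 (limma, unadjusted p = 0.0446, adjusted p = 0.999). It was −0.37 without vehicle 2 and −0.69 without fluoxetine 3. With quantile normalization it was −0.41 (limma, unadjusted p = 0.0605), and with the shift to a common median −0.42 (limma, unadjusted p = 0.0486).

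Per2 (1417602_at) read 261, 254 and 170 with fluoxetine, against 258, 286 and 259 with vehicle. Here fluoxetine 3 was the only low array, and the other fluoxetine arrays were level with vehicle 1 and 3. The difference of −0.25 ± 0.18 (limma, SE, 95% interval −0.68 to 0.18) was −0.05 when fluoxetine 3 was left out. The remaining Per2 probe sets were dim, at geometric means of 10.1 and 5.42, below the level of 50 used as a filter.

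Per3, the Period gene whose loss in mice leaves the rhythm largely intact, read 383, 386 and 363 with fluoxetine, against 425, 483 and 352 with vehicle on its brightest probe set (1421087_at). The fluoxetine arrays lay close together, inside the range of the vehicle arrays. The difference was −0.14 ± 0.14 (limma, SE), and −0.04 without vehicle 2. A second Per3 probe set just above the filter (1442243_at) went the other way, by 0.20 ± 0.19, with 54.5, 63.5 and 51.5 with fluoxetine against 60.0, 52.1 and 37.6 with vehicle. Averaging both turned the sign of Per3 (0.03). Its 4 other probe sets lay far below the filter.

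**Figure D1:**
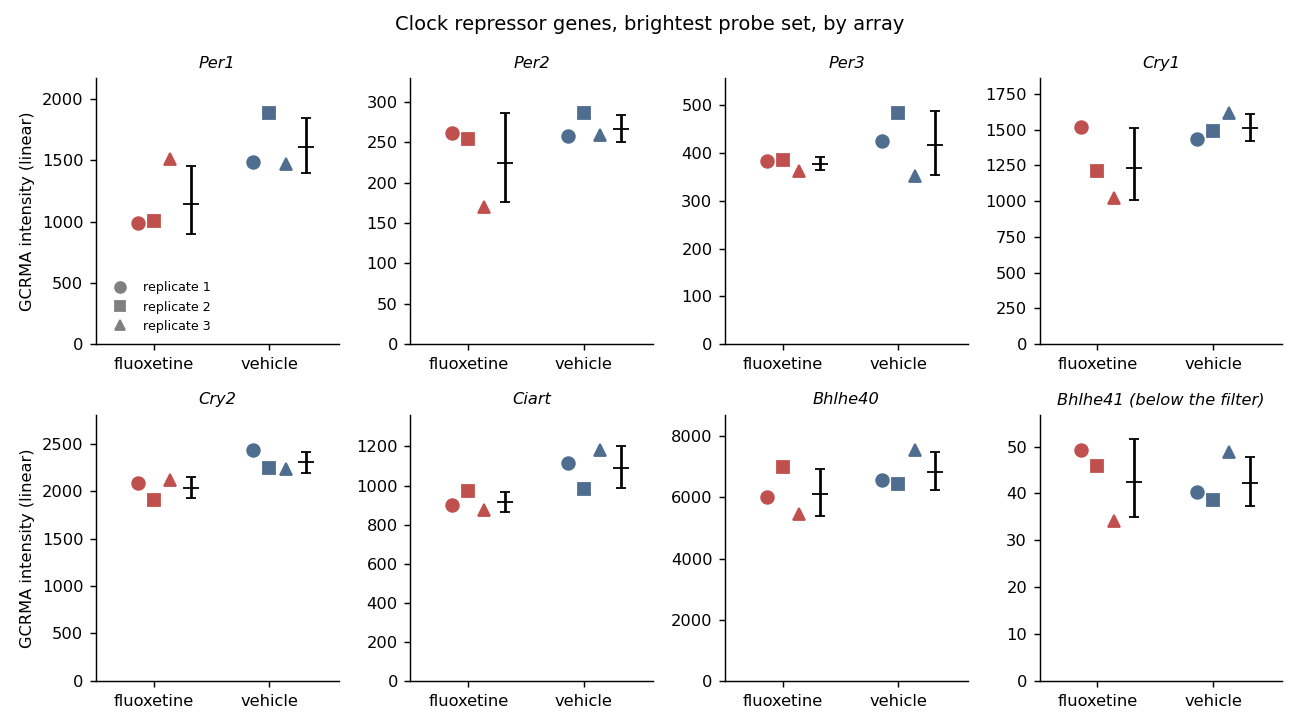
GCRMA intensity (linear, axes from 0) of the brightest probe set of each clock repressor gene on the 3 fluoxetine and 3 vehicle arrays, with symbols for replicate numbers and, at the right of each group, the mean and SD taken on the log2 scale. Only for Cry2 and Ciart do all fluoxetine points lie below all vehicle points. Bhlhe41 lay below the filter.

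The cryptochromes, which bind CLOCK and BMAL1 directly as the main repressors, differed in how even they were. Cry1 (1433733_a_at) read 1517, 1207 and 1022 with fluoxetine, against 1437, 1488 and 1615 with vehicle. Fluoxetine 1 was within the vehicle range and fluoxetine 3 the lowest. The difference was −0.29 ± 0.16 (limma, SE, 95% interval −0.68 to 0.09), or −0.16 without fluoxetine 3 and −0.44 without fluoxetine 1. Cry2 (1426383_at) read 2083, 1907 and 2121 with fluoxetine, against 2437, 2248 and 2231 with vehicle. All fluoxetine arrays lay below all vehicle arrays, but by a small step, and the difference was −0.18 ± 0.11 (a fold of 0.883, unadjusted p = 0.145 in limma).

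Ciart, a repressor also known as CHRONO, read 900, 973 and 877 with fluoxetine, against 1114, 983 and 1183 with vehicle (1435188_at). The groups did not overlap, although fluoxetine 2 and vehicle 2 were nearly level. The difference was −0.25 ± 0.12 (limma, SE, a fold of 0.84, unadjusted p = 0.0734, adjusted p = 0.999). Cry2 and Ciart were thus 2 of 7 genes with all fluoxetine arrays lower, where 5.23% of all tested probe sets were. After quantile normalization the groups of both genes overlapped (differences of −0.10 for Cry2 and −0.18 for Ciart), and 0 of the 7 were separated. The same held after the shift to a common median.

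Bhlhe40 and Bhlhe41, also called DEC1 and DEC2, are basic helix-loop-helix proteins that occupy E-boxes themselves. Bhlhe40 (1418025_at) read 6015, 6983 and 5473 with fluoxetine, against 6572, 6444 and 7558 with vehicle. Fluoxetine 2 exceeded vehicle 1 and 2, and the difference was −0.16 ± 0.14 (limma, SE), or −0.08 without fluoxetine 3. Bhlhe41 stayed under the filter at 49.3, 45.8 and 34.1 with fluoxetine and 40.2, 38.6 and 48.9 with vehicle (1421099_at). Its groups overlapped throughout, and its other probe set was at 8.72. Levels of different probe sets cannot be ranked on an array, so no order of abundance among the members is given.

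The lower means did not come from the same arrays in every gene. Fluoxetine 3 was the lowest array for 4 of the 7 genes (Per2, Cry1, Ciart and Bhlhe40), fluoxetine 1 for Per1, fluoxetine 2 for Cry2 and vehicle 3 for Per3. No fluoxetine array was the highest for any of the 7 genes. Over the 6 arrays, pairs of members had Pearson correlations of −0.05 to 0.84, with a median of 0.45 over 21 pairs that share the same arrays and scaling. Per2 went most with Cry1 (0.84) and Bhlhe40 most with Ciart (0.83), while Per1 and Per2 had a correlation of −0.04. Leaving out fluoxetine 3 put the members' median at −0.16.

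Marker lists of other cells moved on some of the same arrays. Both measured microglia genes of 4, Cx3cr1 and Csf1r, were highest on fluoxetine 3, and the list summed to 670 to 1241 on the fluoxetine arrays and 783 to 869 on the vehicle arrays, with P2ry12 and Aif1 below the filter. All 5 pericyte and smooth muscle genes were highest on vehicle 3, the array on which Cry1, Ciart and Bhlhe40 were highest, and the list summed to 6889 to 9205 with fluoxetine and 8568 to 13485 with vehicle. Of 8 nuclear and non-coding transcripts, 6 were measured, with sums of 885 to 1549 with fluoxetine and 965 to 2020 with vehicle. Their mean deviation was −0.50 on fluoxetine 1, where Per1 was lowest, and −0.39 on vehicle 3. The transcripts did not all move alike. Malat1 stood furthest out, at −1.60 and −1.46 on these arrays, while Neat1 was at −0.24 and 0.09 and Miat at −0.14 and 0.10. The part of these lists in the members' differences was not tested.

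Per1 had its own company. Among 11755 tested genes, each by its brightest probe set, the profile most like that of Per1 over the 6 arrays was that of Egr1, an activity-induced zinc finger factor (Pearson r = 0.994), followed by Ift122 and Prag1. Egr1 read 15713, 16412 and 20288 with fluoxetine, against 19916, 23872 and 20287 with vehicle. As for Per1, fluoxetine 1 and 2 were low and vehicle 2 was high, and the difference was −0.29 ± 0.14 (limma, SE). Such correlations are the highest of many over few arrays and are given as a description. The list of 20 immediate early genes, all measured, had 18 lower with fluoxetine (66.3% of all tested probe sets were lower) and a median of −0.41. In this list 7 had an unadjusted p under 0.05 in limma (2.52% of all tested probe sets did) and 0 passed after adjustment. Its mean deviation was lowest on fluoxetine 1 (−0.39) and highest on vehicle 2 (0.49), the arrays that were also lowest and highest for Per1. On fluoxetine 2 and 3 the list did not follow Per1. It stood at −0.06 and −0.15 there, against −0.43 and 0.16 for Per1. Without both arrays, a choice made after seeing the data, Per1 differed by −0.26. Leaving out its lowest fluoxetine array and its highest vehicle array had to make the Per1 difference smaller. The part of neuronal activity at the time of tissue collection in the Per1 difference was not tested.

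**Figure D2:**
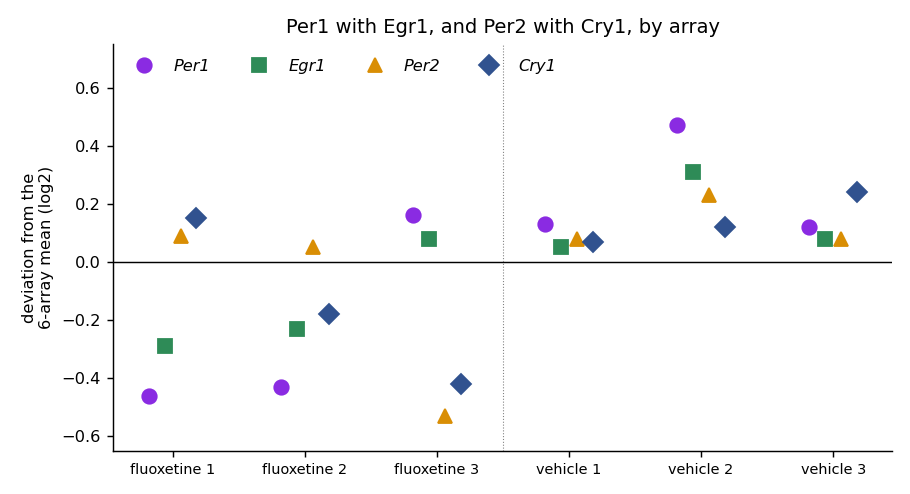
Deviation of each array from the 6-array mean of a gene (log2 intensity, brightest probe set) for Per1, Egr1, Per2 and Cry1 on fluoxetine 1 to 3 and vehicle 1 to 3. Per1 and Egr1 are low on fluoxetine 1 and 2, where Per1 stands at −0.46 and −0.43, whereas Per2 and Cry1 are lowest on fluoxetine 3, at −0.53 and −0.42.

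For the other members the nearest profiles were of genes outside the clock lists. Per2 was most like Coq10b, Btg1 and Abhd17c (r of 0.994, 0.985 and 0.984), and Cry1 most like Numb, Dedd2 and Srgap2 (0.991, 0.991 and 0.990). Bhlhe40 was most like Bcl2l11 (0.999), Fis1 and Rbpms, and Ciart most like Capzb (0.989), Nrep and Lrtm2. Cry2 was most like Panct2 (0.989), Flii and Usp10, and Per3 most like Galk2 (0.988), Gin1 and Wdr41.

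On the list of other clock genes, 21 were measured, and Arntl2 lay below the filter. Their median difference was −0.07, 16 were lower and 5 higher (66.3% of all tested probe sets were lower), none had an unadjusted p under 0.05, and none passed limma's test. After quantile normalization 10 of the 21 were lower. Usp2, a deubiquitinase whose transcript cycles, was the one gene with all fluoxetine arrays below all vehicle arrays, at 2408, 2428 and 2496 against 2680, 3126 and 2819 (difference −0.23 ± 0.11, SE, with its other probe set at −0.12). As a share this 1 of 21 is near the 5.23% of all tested probe sets.

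The partners that the repressors act on had overlapping groups. Arntl, which encodes BMAL1, read 1196, 1033 and 1464 with fluoxetine, against 1479, 1402 and 1141 with vehicle (−0.13 ± 0.17, SE). Clock differed by −0.20 ± 0.18 (other tested probe sets −0.20 and −0.09) and Npas2, a forebrain stand-in for CLOCK, by −0.01 ± 0.10. The REV-ERB genes Nr1d1 and Nr1d2, repressors of Arntl, differed by −0.16 ± 0.12 and −0.11 ± 0.14. Their activating rivals Rora and Rorb differed by −0.29 ± 0.25 and 0.05 ± 0.32. The 5 further tested probe sets of Rora were lower as well, at −0.61 to −0.35. Those of Rorb were at −0.15 and −0.58, against the sign of its brightest probe set.

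The output factors of the PAR family bind D-boxes such as those of Per3. Dbp differed by −0.07 ± 0.11 (SE) on its brightest probe set and by −0.26 on its other one, Tef by −0.12 ± 0.12 (other probe set −0.07) and Hlf by −0.07 ± 0.10 (other probe set −0.13), and their competitor Nfil3 by 0.03 ± 0.14. Enzymes that set the life of PER and CRY proteins had differences of both signs. The casein kinase genes Csnk1d and Csnk1e differed by −0.06 ± 0.15 and −0.23 ± 0.18, and the kinase gene Gsk3b by −0.07 ± 0.15. Other tested probe sets were at −0.15 to 0.28 for Csnk1d, −0.36 and −0.05 for Csnk1e, and −0.28 to −0.04 for Gsk3b. The ubiquitin ligase genes Fbxl21, Btrc and Fbxw11 differed by 0.17 ± 0.12, 0.16 ± 0.14 and −0.13 ± 0.11. Fbxl21 was dim, at 54.2 to 70.3 over the arrays, and the other tested probe sets of Btrc were at 0.00012 and −0.12. The other one of Fbxw11 was at −0.07. Of the last genes on the list, Timeless differed by 0.04 ± 0.14, and Nono and Wdr5, whose proteins bind PER complexes, by −0.04 ± 0.15 and −0.01 ± 0.16. The other tested probe sets of Nono were at −0.06 and −0.10.

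**Figure D3:**
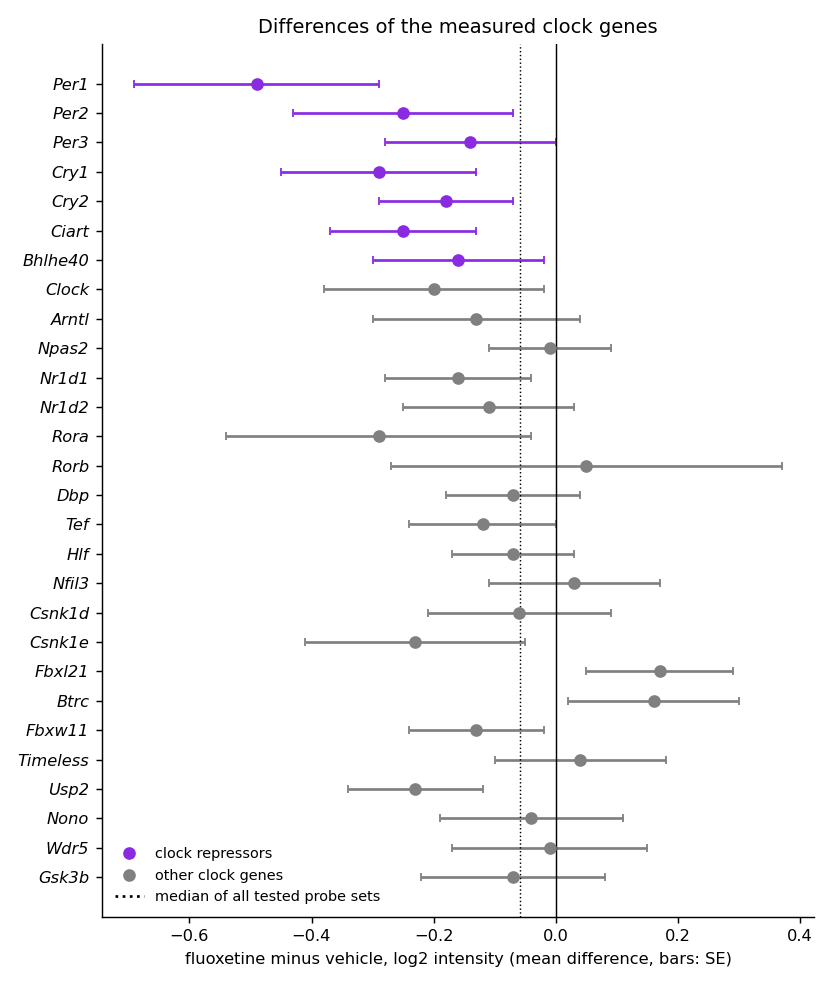
Difference of fluoxetine minus vehicle in log2 intensity (points) with its limma standard error (bars) for the 7 measured clock repressors and the 21 other measured clock genes, against 0 (solid line) and the median of all tested probe sets, −0.058 (dotted line). All repressors lie left of 0, between −0.49 for Per1 and −0.14 for Per3, and the other clock genes spread from −0.29 for Rora to 0.17 for Fbxl21.

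Clock genes of opposite phase were set side by side as a sign of the time of day. In mouse tissues Per1, Per2, Per3, Ciart, Nr1d1, Nr1d2, Dbp and Tef are known to be high late in the light phase or around dusk, and Arntl, Clock, Npas2, Nfil3 and Cry1 late in the night or around dawn. Bhlhe41, also of the late light phase, lay below the filter. Per1, Per2, Per3 and Ciart in the first set and Cry1 in the second are members, so these sets partly restate the members' values. The 8 genes of the late light phase deviated from their 6-array means by −0.09, −0.06 and −0.15 on fluoxetine 1, 2 and 3, against 0.09, 0.15 and 0.07 on vehicle 1, 2 and 3 (mean log2 deviation). The 5 genes of the opposite phase deviated by 0.01, −0.18 and −0.01 with fluoxetine, against 0.11, 0.14 and −0.07 with vehicle. The fluoxetine mean was below the vehicle mean by 0.20 in the first set and by 0.12 in the second. The genes of the first set that are not members differed by −0.16 (Nr1d1), −0.11 (Nr1d2), −0.07 (Dbp) and −0.12 (Tef). Those of the second differed by −0.13 (Arntl), −0.20 (Clock), −0.01 (Npas2) and 0.03 (Nfil3).

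The contrast between them, late light phase minus opposite phase, was −0.09, 0.12 and −0.15 with fluoxetine, against −0.03, 0.01 and 0.14 with vehicle. The groups overlapped, and the group means of −0.04 ± 0.14 and 0.04 ± 0.09 (SD, n = 3 each) differed by −0.08. After quantile normalization the late light phase set differed by −0.14, the opposite set by −0.06 and the contrast by −0.09. The late light phase set then ran from −0.13 to 0.01 with fluoxetine and 0.05 to 0.09 with vehicle, and after the shift to a common median from −0.14 to 0.02 and 0.02 to 0.10. No p is given, because the genes were chosen with earlier results known. The part of the hour of collection in the members' differences was not tested.

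**Figure D4:**
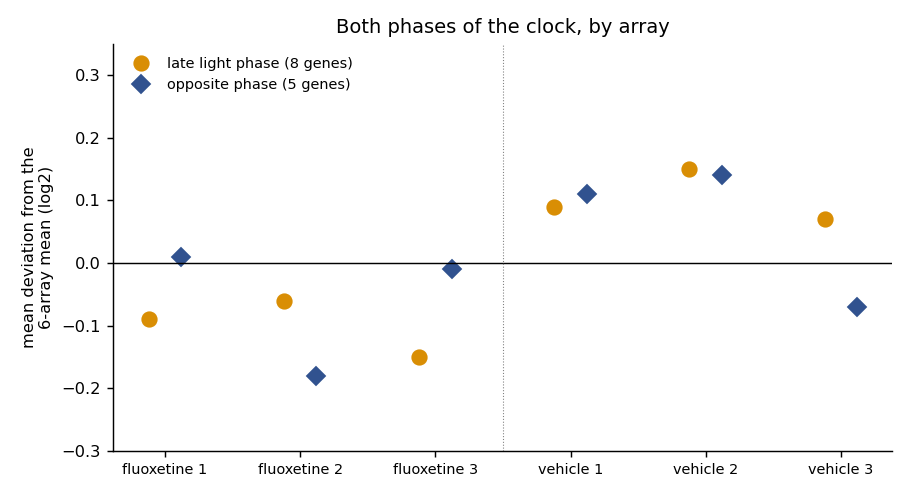
Mean deviation from the 6-array mean (log2 intensity) of 8 clock genes of the late light phase (circles) and 5 of the opposite phase (diamonds) on each fluoxetine and vehicle array. The members Per1, Per2, Per3 and Ciart are among the 8, and Cry1 is among the 5. The late light phase set is below 0 on all 3 fluoxetine arrays and above 0 on all 3 vehicle arrays (its highest fluoxetine array is at 0.01 after quantile normalization), and the opposite set is lowest on fluoxetine 2 (−0.18) and highest on vehicle 2 (0.14).

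The highest array exceeded the lowest by a median of 1.38-fold for the 7 measured repressors and 1.33-fold for the 21 other clock genes, against 1.43-fold for all tested probe sets. Among the other clock genes Rorb spanned 2.19-fold, Rora 2.04-fold, Csnk1e 1.65-fold and Clock 1.52-fold, and Nr1d1 1.33-fold, Dbp 1.16-fold and Npas2 1.09-fold. Among the repressors the spans ran from 1.28-fold for Cry2 to 1.91-fold for Per1, and those of Per1, Per2 and Cry1 exceeded 1.5-fold. Within the groups, Per2 spanned 1.53-fold over the fluoxetine arrays and 1.11-fold over the vehicle arrays, and Cry1 1.48-fold and 1.12-fold. Vehicle arrays were further apart than fluoxetine arrays for Per3, at 1.06-fold with fluoxetine and 1.37-fold with vehicle, and for Ciart, at 1.11-fold and 1.2-fold.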

How the data were processed

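The data were 6 single-colour arrays of TRAP RNA. The authors deposited 1 intensity per probe set and array, on a linear scale after GCRMA, as the submitters' processing notes and the design text state. No GCRMA version is named there. GCRMA squeezes low values towards a floor and makes array distributions more alike, though upper quartiles still ran from 498 to 574. Here log2 of each value was used, without an offset. After leaving out 64 controls, probe sets with a geometric mean of at least 50 over the 6 arrays were tested for fluoxetine minus vehicle with limma 3.58.1 in R 4.3.3 (lmFit and eBayes without a block, two-sided tests). P-values were adjusted by Benjamini-Hochberg over 22326 probe sets, with a threshold of 0.05. The fit was tested on simulated data. The brightest probe set annotated to 1 symbol stood for each gene (34945 probe sets had 1 symbol, 932 several and 9160 none). Named genes were the members with every probe set, the other clock genes, and for each member the 3 genes of highest correlation, passing over predicted genes and clone names. Up to 3 members of each context list, by smallest p, could be named. S100a10, the layer 5 markers, Gfap, Malat1 and Egr1 were named to check the labels or because a result turned on them. Members and lists were chosen with earlier results of these data known. Some genes of the clock list are not reported here. Alternatives were other filters, an offset of 16, other scalings, variance estimates, array weights, a replicate block, other choices of probe set and leaving out arrays. The submitters state that the S100a10 line marks some cells other than neurons and advise restricting the analysis to a published list, which was not applied.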

Additional observations from a re-analysis of the deposited data

How the results depend on the processing

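Precision rests on 3 arrays a group, and dim probe sets such as those of Bhlhe41 lie near the floor of GCRMA. Leaving out fluoxetine 1 with vehicle 2 was chosen after seeing the data. No probe set and no clock repressor passed the threshold in any alternative fit, and the 7 measured repressors were lower in each fit that kept them. Exceptions were Per3 (0.03) when a gene's probe sets were averaged, which gave no test, and Bhlhe41, which differed by 0.01 when no filter was used. Cry1 had no probe set left without those named _s_, _x_ or _a_. The members' median of −0.25 became −0.18 with quantile normalization and −0.19 with the median shift, and −0.28 to −0.16 on leaving out arrays. The other clock genes, 16 of 21 lower with a median of −0.07, had 10 lower and a median of 0.00041 with quantile normalization, and a median of −0.01 with the median shift. On leaving out arrays 12 to 18 of them were lower, with medians of −0.12 to −0.05, and the phase contrast of −0.08 was −0.16 to −0.02. The cause of these moves was not tested. With the replicate block 350 probe sets had an unadjusted p under 0.05 in place of 563, 0 passed, and the members' median was −0.25. Same-numbered arrays had correlations of −0.253, −0.0275 and −0.502 in their deviations from the group means. Deviations within so small a group are tied to each other, so these values cannot decide whether the numbers pair the samples.

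Other clock genes, most of them near 0, changed sign. With quantile normalization Npas2 was at 0.04, Hlf at 0.00041, Csnk1d at 0.01, Nono at 0.03, Wdr5 at 0.05 and Gsk3b at 0.01. With the median shift Npas2 was at 0.05, Csnk1d at 0.0049, Nono at 0.02 and Wdr5 at 0.05. Averaging probe sets gave −0.23 for Rorb, and Btrc was at −0.12 without probe sets named _s_, _x_ or _a_. Leaving out any 1 array gave ranges of −0.04 to 0.02 for Npas2, −0.21 to 0.36 for Rorb, −0.05 to 0.14 for Nfil3 and −0.13 to 0.10 for Csnk1d. The ranges were −0.04 to 0.14 for Timeless, −0.15 to 0.04 for Nono, −0.16 to 0.07 for Wdr5 and −0.19 to 0.02 for Gsk3b. Leaving out fluoxetine 1 with vehicle 2 gave 0.58 for Rorb, −0.14 for Csnk1d, −0.24 for Nono and −0.17 for Wdr5. Rora, at −0.29, was at −0.47 to −0.07 on leaving out any 1 array. It changed sign only without that pair (0.08).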

Other observations

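Glucocorticoid-responsive genes were examined beside Per1, which the glucocorticoid receptor can switch on. All 15 on the list were measured, 10 lower and 5 higher with fluoxetine (66.3% of all tested probe sets were lower), with a median difference of −0.13 in log2 and 0 passing limma's test (0 also at an unadjusted p under 0.05). The members with the smallest p were Sult1a1, a sulfotransferase gene (−0.35 ± 0.19, SE), Zbtb16, a zinc finger factor (−0.33 ± 0.18), and Cdkn1a, a cell cycle inhibitor (0.50 ± 0.31). Of the 15 genes, 4 were lowest on fluoxetine 3, as many as on fluoxetine 1 and on vehicle 1. The list's mean deviation was 0.01, −0.02 and −0.15 on fluoxetine 1 to 3, against −0.01, 0.13 and 0.04 on vehicle 1 to 3.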
